A study of Mus musculus with 12 samples.

Results

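The carriers that bring nutrients, hormones and organic anions across the blood-brain barrier were followed in RNA-seq of mouse cerebral vessels during the first hours of systemic inflammation. The group holds 10 genes chosen by name for their known transport role, out of 54119 genes for which transcript estimates were summed. The choice was made with earlier results of these data known, so counts of carriers beside all genes are a description. All 10 were among the 19150 genes that passed the filter on low counts. They are Slc2a1, Slc7a5, Slc3a2, Slc7a1, Slc38a5, Slc6a6, Slc16a1, Slco1c1, Slco1a4 and Slc22a8. At 4 h after lipopolysaccharide (LPS) 8 of the 10 carriers had fallen, by 2.07-fold for Slc2a1 to 9.88-fold for Slco1a4, where 13.8% of all genes tested were lower and 19.0% higher. The fall of Slc2a1 was not called when libraries were scaled to the median of 14 endothelial markers. That scaling left 7 lower, beside 3.70% of all genes tested. At 15 min and 30 min Slc2a1 was instead higher than in the controls. Slc7a5 was called higher at 15 min as well, but not under all settings. Slc6a6 was lower at 15 min, though not called with the endothelial marker scaling, and Slc16a1 was lower at 30 min. The changes of Slc3a2 and Slc7a1 did not pass the test at any time.

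LPS is a component of the outer membrane of Gram-negative bacteria, and its injection models the inflammation of sepsis. Wild-type C57BL6 mice of 2 to 3 months received PBS or a single intraperitoneal dose of 10 mg/kg LPS and were studied at 15 min, 30 min or 4 h. Each of the 4 groups held 3 libraries of cerebral vessels, and each library combined RNA of 1 male and 1 female mouse, so that the sexes cannot be compared. The control group is called PBS, and the others are called by their time, from LPS 15 min to LPS 4 h. No PBS group was given for each time point, so the 3 LPS groups were compared with the same 3 PBS libraries and their comparisons are not independent. The labels do not say how the pools of a group were kept apart up to the library step, so the p-values measure the spread between these pools.

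Brain endothelial cells are joined by tight junctions, so that polar nutrients pass only through carriers in the luminal and abluminal membranes. GLUT1, the product of Slc2a1, carries glucose by facilitated diffusion. LAT1, the Slc7a5 light chain, works as a heteromer with the 4F2hc heavy chain of Slc3a2 and exchanges large neutral amino acids, thyroid hormone and L-DOPA. CAT1 (Slc7a1) carries arginine and lysine, SNAT5 (Slc38a5) glutamine and other small neutral amino acids, TauT (Slc6a6) taurine, and MCT1 (Slc16a1) lactate and ketone bodies. Slco1c1 encodes the thyroxine carrier OATP1C1, Slco1a4 the broad anion carrier OATP1A4, and Slc22a8 the organic anion transporter OAT3. Several of them, Slc22a8 and Slco1c1 among them, are also made by the epithelium of the choroid plexus.

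The libraries held 18309177 to 25882028 fragments assigned to transcripts. All 14 endothelial markers examined were detected, and their summed level was 11830 to 12078 in PBS, as TPM, a level per transcript length and per library, 10871 to 11046 after 15 min, 8832 to 8971 after 30 min and 4375 to 4463 after 4 h. Choroid plexus markers, led by transthyretin, were also abundant, with a summed 16767 to 17472 TPM in PBS and 14943 to 16008 TPM after 4 h. None of these 7 markers was at 0 in any group, so the vessels were not free of choroid plexus RNA. Of 6 neutrophil markers, all 5 tested were called higher after 4 h. The summed level of the 6 was 14.3 to 20.4 TPM in PBS and 567 to 592 TPM after 4 h, with Ly6g at 0 in PBS. All 4 red blood cell markers were called higher after 4 h as well, at a summed 6201 to 6989 TPM in PBS and 10345 to 10787 TPM after 4 h. The part of these shifts in the results on the carriers was not tested. In such bulk samples, fewer cells of a type and less RNA per cell cannot be told apart.

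In PBS the carriers spanned a wide range of levels, given here as TPM with SD over 3 libraries. Slc2a1 was the most abundant at 1573 ± 41.4 TPM, followed by Slco1a4 at 718 ± 26.1 TPM. Slc6a6 with 467 ± 13.7 TPM and Slco1c1 with 448 ± 13.1 TPM came next, and this was the only pair of neighbours in the PBS order whose libraries overlapped. Below them stood Slc3a2 at 337 ± 9.49 TPM, Slc7a5 at 239 ± 5.48 TPM, Slc22a8 at 167 ± 3.61 TPM and Slc38a5 at 137 ± 1.90 TPM. Slc16a1 at 73.2 ± 2.20 TPM and Slc7a1 at 46.7 ± 4.62 TPM were the lowest. After 4 h the order was different. Slc2a1 remained first at 421 ± 8.52 TPM, Slc3a2 came second at 242 ± 8.23 TPM, and Slco1a4 came below Slco1c1 and Slc6a6 at 41.5 ± 1.01 TPM. Slc7a5 with 18.3 ± 1.73 TPM and Slc22a8 with 17.1 ± 0.373 TPM overlapped there, and Slc38a5 was last at 9.83 ± 0.793 TPM. The 10 carriers together made up 4205 ± 100.3 TPM in PBS, 5158 ± 76.7 TPM after 15 min, 4545 ± 27.9 TPM after 30 min and 944 ± 23.5 TPM after 4 h.

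Next, each carrier was compared between groups on CPM, fragment counts relative to library size, scaled with TMM factors, which hold most genes level between libraries. A gene was called changed where edgeR found its change beyond 1.5-fold, a log2 fold change of 0.58, at an adjusted p below 0.05 over all genes tested. After 15 min 2 carriers were higher than in PBS, against 3.31% of all genes tested, and 1 was lower, against 0.872%. After 30 min 1 was higher and 1 lower, against 3.78% and 0.799% of all genes. After 4 h 8 of 10 were lower and 0 higher, where 13.8% of all genes were lower and 19.0% higher. With edgeR's test against no change 9 of 10 passed after 15 min and 9 after 30 min, beside 38.6% and 36.9% of all genes. In the same test 10 passed after 4 h, 9 lower and 1 higher, beside 68.5% of all genes. With DESeq2 and the same fold threshold 8 were lower after 4 h, beside 10.4% of all genes, and 0 higher, beside 3185 genes. Limma, on the deposited table plus 1 or plus 10, also gave 8 lower and 0 higher. Of all genes, limma called 11.2% or 10.1% lower and 3030 or 2963 genes higher. At an unadjusted p under 0.05 edgeR gave 9 lower and 0 higher, a count not made over all genes. The median log2 fold change of the 10 carriers was -0.02, -0.18 and -1.54 at the 3 times, while that of all genes was -0.01 or closer to 0. The plot of levels by library shows how narrow the spread within each group was.

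**Figure D1:**
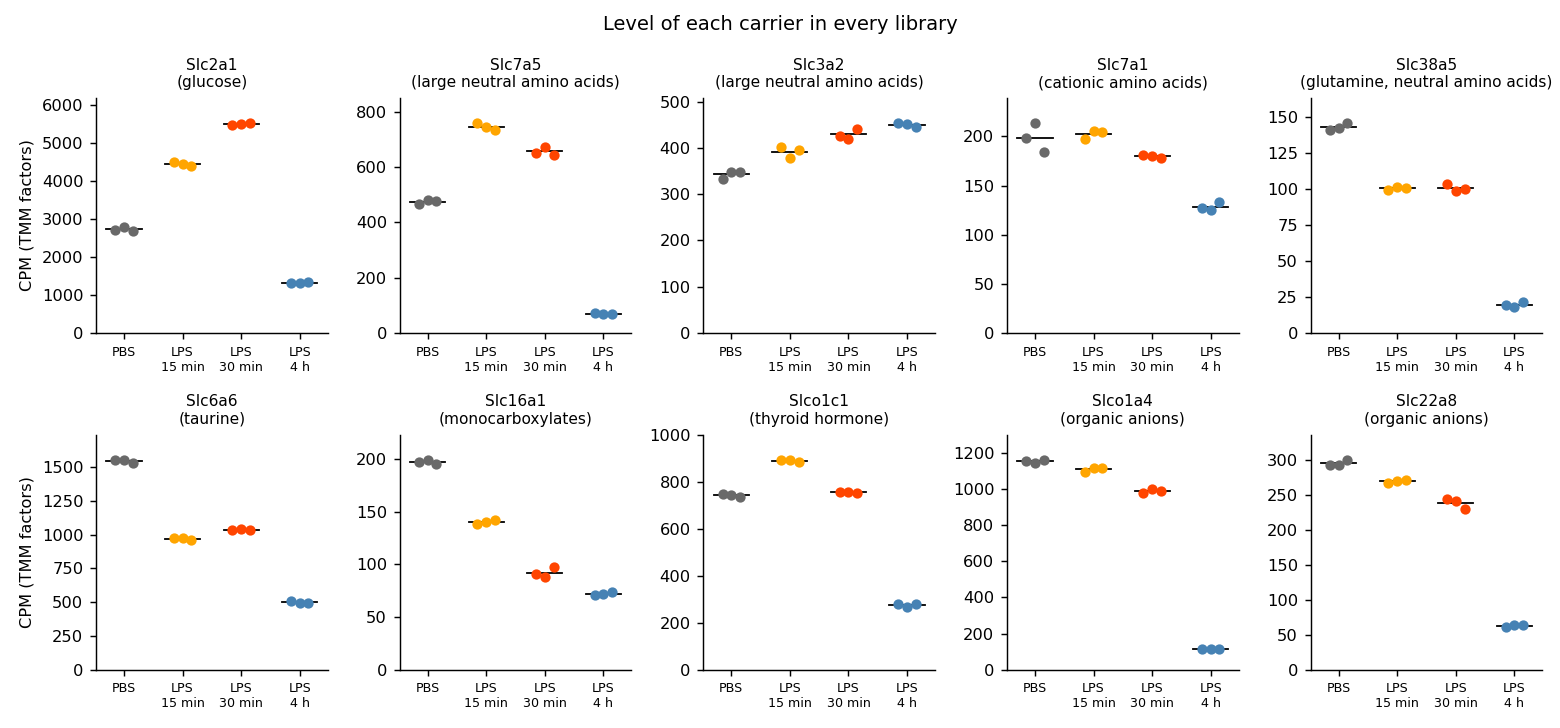
Level of each of the 10 carriers in CPM (TMM factors; each axis starts at 0) in the 3 libraries (points) of the PBS group and of each LPS time, with the group mean as a line. In 8 panels the LPS 4 h points lie far below PBS, Slc2a1 peaks after 30 min with 5496 to 5533 CPM, and Slc3a2 ends above its PBS level, though below it when scaled by library size alone.

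Slc2a1 (ENSMUSG00000028645, chr4:119108711-119137983 of GRCm38, plus strand) encodes the main glucose carrier of the barrier. Its level in the PBS libraries was 2728, 2786 and 2684 CPM. It was 4500, 4455 and 4399 CPM after 15 min and 5496, 5501 and 5533 CPM after 30 min. After 4 h the libraries held 1323, 1310 and 1336 CPM. Every library of the early groups lay above every PBS library, and every LPS 4 h library lay below. The rise was 1.63-fold after 15 min (log2 0.70 ± 0.02 SE, adjusted p = 3.19e-06) and 2.02-fold after 30 min (log2 1.01 ± 0.02, adjusted p = 1.91e-16). The step from LPS 15 min to LPS 30 min was not called (log2 0.31 ± 0.02). In TPM these early groups overlapped, at 2591 ± 51.5 after 15 min and 2599 ± 19.1 after 30 min. After 4 h Slc2a1 was 2.07-fold lower than in PBS (log2 -1.05 ± 0.02, adjusted p = 5.84e-18). This fall was not called when libraries were scaled to the median of the endothelial markers, where it was -0.25. Between LPS 30 min and LPS 4 h the level fell 4.17-fold (log2 -2.06 ± 0.02, adjusted p = 4.34e-27), and this step was called under every scaling tried.

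Slc2a1 held nearly all hexose carrier RNA of the vessels. Its share of the summed TPM of 10 hexose carriers was 95.0 ± 0.277% in PBS, 96.9 ± 0.203% after 15 min, 97.5 ± 0.0355% after 30 min and 85.9 ± 0.438% after 4 h. Of the other 9 hexose carriers, Slc2a3, the high-affinity GLUT3 of neurons and leukocytes, rose after 15 min (log2 1.04 ± 0.07, adjusted p = 1.82e-05). Of the 6 neuron markers 2 were also called higher after 15 min, with a summed 206 to 217 TPM in PBS and 307 to 310 TPM after 15 min and none at 0, and their part in this rise was not tested. Slc2a6 rose after 4 h (log2 2.92 ± 0.08, adjusted p = 8.25e-18), from 7.53 to 30.5 TPM. Slc2a8 fell (log2 -0.84 ± 0.09, adjusted p = 0.00521). Of all 9 there were 2 higher and 3 lower after 4 h, beside 19.0% and 13.8% of all genes tested. Among genes whose products handle GLUT1, Txnip and Arrdc4, arrestins that promote its removal from the cell surface, rose after 4 h by 2.62 ± 0.02 and 2.35 ± 0.14 on the log2 scale (adjusted p = 2.72e-27 and 1.52e-11). Gipc1, which binds the end of GLUT1, was lower (log2 -0.75 ± 0.07, adjusted p = 0.0103).

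Slc7a5 (ENSMUSG00000040010, chr8:121881150-121907694, minus strand) showed 467, 479 and 476 CPM in PBS. After 15 min it stood at 758, 744 and 733 CPM and after 30 min at 651, 673 and 644 CPM. The LPS 4 h libraries held 70.6, 69.0 and 68.0 CPM. Both early groups lay wholly above PBS and the last wholly below. The rise after 15 min was 1.57-fold (log2 0.65 ± 0.02, adjusted p = 0.0280) and lies close to the 1.5-fold limit of the test. It was not called with DESeq2 (adjusted p = 0.839), with DESeq2's size factors in edgeR (adjusted p = 0.136), or in edgeR without PBS library 1 or LPS 15 min library 1 or 2, while the log2 value stayed between 0.64 and 0.66 when single libraries were left out. After 30 min the value was 0.47 ± 0.02 (adjusted p = 1). After 4 h Slc7a5 fell 6.85-fold (log2 -2.78 ± 0.03, adjusted p = 1.79e-26), and from LPS 30 min it fell 9.49-fold (log2 -3.25 ± 0.03, adjusted p = 1.25e-27).

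Its partner Slc3a2 (ENSMUSG00000010095, chr19:8706882-8723369, minus strand) did not follow it. The PBS libraries held 333, 348 and 347 CPM and the LPS 4 h libraries 454, 452 and 444 CPM. The log2 value was 0.19 ± 0.03 after 15 min, 0.32 ± 0.03 after 30 min and 0.39 ± 0.03 after 4 h, each with an adjusted p of 1. All 3 passed the test against no change, and every LPS 4 h library lay above every PBS library on this scale. The direction after 4 h depends on the scaling, since the log2 value was -0.31 by library size alone and 1.19, then called, with endothelial marker scaling. Between LPS 30 min and LPS 4 h the difference was 0.07 ± 0.03.

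A ratio of both chains within a library does not depend on this scaling. The TPM of Slc7a5 over that of Slc3a2 was 0.736, 0.723 and 0.670 in PBS and 1.00, 1.03 and 0.972 after 15 min. It was 0.754, 0.828 and 0.743 after 30 min and 0.0807, 0.0734 and 0.0722 after 4 h. Hence the light chain RNA went from a mean of 0.710 ± 0.0354 per heavy chain RNA in PBS to 0.0754 ± 0.00460 after 4 h, with no overlap between these groups. The exact two-sided permutation test gave p = 0.1 for each LPS group, the smallest value that 3 against 3 libraries can give. The 5 other light chains that can pair with Slc3a2 together held 94.1 ± 2.06 TPM in PBS and 113 ± 3.09 TPM after 4 h. The share of Slc7a5 in all 6 light chains was 71.7 ± 0.164% in PBS, 80.7 ± 0.389% after 15 min, 77.7 ± 0.832% after 30 min and 13.95 ± 1.35% after 4 h. Among these others Slc7a11, the cystine and glutamate exchanger, rose after 4 h (log2 2.62 ± 0.03, adjusted p = 9.40e-25), as did Slc7a6 (log2 1.54 ± 0.07, adjusted p = 1.61e-12) and Slc7a8 (log2 1.15 ± 0.07, adjusted p = 7.56e-09). These log2 values are with TMM factors and depend on the scaling. In TPM, Slc7a11 went from 16.3 in PBS to 51.2 after 4 h, Slc7a6 from 8.36 to 14.7 and Slc7a8 only from 8.47 to 10.0. The rest of these 5 were not named under the rule for related lists.

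**Figure D2:**
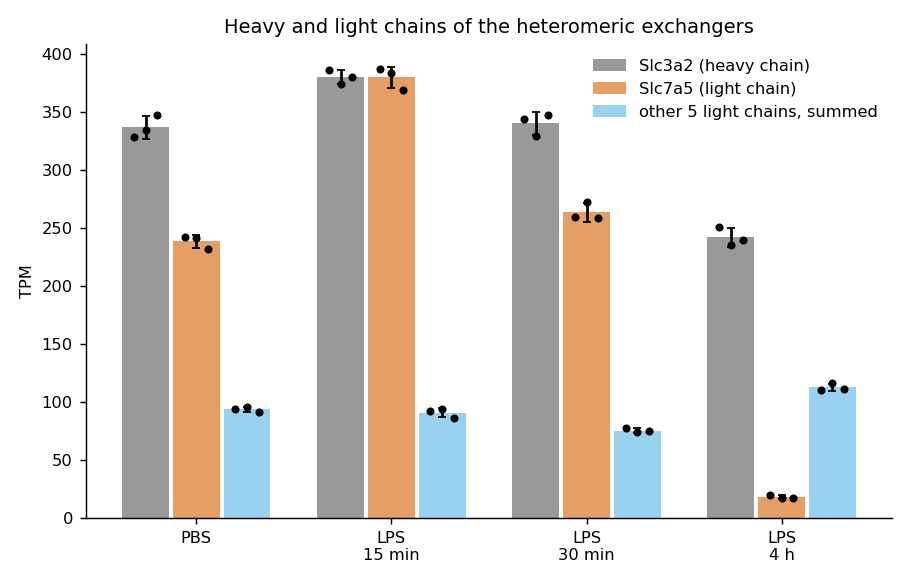
TPM of the heavy chain Slc3a2, the light chain Slc7a5 and the summed 5 other light chains in each group. Bars are means, whiskers SD over 3 libraries and points the libraries. The Slc7a5 bar equals that of Slc3a2 after 15 min, near 380 TPM each, and drops to 18.3 TPM after 4 h beside 242 TPM of Slc3a2.

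Slc7a1 (ENSMUSG00000041313, chr5:148327410-148399904, minus strand), the carrier of arginine and lysine, was the least abundant of the 10 in PBS by TPM and had the largest SD there relative to its mean. Its PBS libraries held 199, 214 and 184 CPM, and those of LPS 4 h held 127, 125 and 133 CPM. The LPS 4 h libraries thus lay below all PBS libraries. The log2 value was 0.02 ± 0.04 after 15 min, -0.15 ± 0.04 after 30 min and -0.63 ± 0.04 after 4 h (adjusted p = 0.132), and none was called. Without PBS library 3 the value after 4 h was -0.68 and passed (adjusted p = 0.00667). It also passed by library size alone (-1.33), without the low-count filter (-0.68) and with the transcript length offset (-0.71), and with endothelial marker scaling it was 0.17 and not called.

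Slc38a5 (ENSMUSG00000031170, chrX:8271133-8280179, plus strand), a carrier of glutamine, held 141, 143 and 146 CPM in PBS. It stood at 99.6, 102 and 101 CPM after 15 min and at 104, 98.6 and 100.1 CPM after 30 min. Both early groups lay below PBS by the same amount, with log2 -0.51 ± 0.04 each, which is short of the 1.5-fold limit (adjusted p = 1). The LPS 4 h libraries held 19.2, 18.2 and 21.4 CPM. The fall against PBS was 7.30-fold (log2 -2.87 ± 0.05, adjusted p = 3.62e-22), and from LPS 30 min it was 5.13-fold (log2 -2.36 ± 0.05, adjusted p = 1.02e-19). The 9 other neutral amino acid carriers had 3 members higher and 2 lower after 4 h, beside 19.0% and 13.8% of all genes tested. Slc38a3, another glutamine carrier, fell in the same comparison (log2 -2.07 ± 0.04, adjusted p = 1.37e-21). Slc38a2, the widely expressed SNAT2, rose after 30 min (log2 1.199 ± 0.033, adjusted p = 5.74e-14) and after 4 h (log2 1.62 ± 0.03, adjusted p = 3.43e-19).

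Slc6a6 (ENSMUSG00000030096, chr6:91684053-91759066, plus strand) encodes the sodium-dependent taurine carrier. Its libraries held 1553, 1554 and 1531 CPM in PBS, 976, 973 and 957 CPM after 15 min and 1038, 1044 and 1033 CPM after 30 min. After 4 h they held 512, 491 and 495 CPM. All LPS libraries lay below all PBS libraries from the first time point on. Slc6a6 fell 1.60-fold after 15 min (log2 -0.67 ± 0.02, adjusted p = 0.000987), and the value after 30 min was -0.57 ± 0.02 (adjusted p = 1). The difference between these early groups was 0.10 ± 0.02 and was not called. With endothelial marker scaling the value after 15 min was -0.51 and not called. After 4 h the fall was 3.10-fold (log2 -1.63 ± 0.02, adjusted p = 6.09e-23). Of 5 related carriers of the same family, Slc6a12 and Slc6a13, which carry betaine and GABA, also fell after 15 min (log2 -2.03 ± 0.11 and -1.03 ± 0.04, adjusted p = 3.12e-10 and 6.93e-09). At that time 3 of 5 smooth muscle, 2 of 5 perivascular fibroblast and 2 of 8 astrocyte markers were called lower and 0 higher. Their summed levels went from 1921 to 1932, 194 to 210 and 417 to 423 TPM in PBS to 1240 to 1258, 152 to 158 and 285 to 309 TPM, with none at 0. The part of these shifts in the values of the Slc6 carriers was not tested. After 4 h 3 of the 5 related carriers were lower and 1 was higher, beside 13.8% and 19.0% of all genes tested.

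Slc16a1 (ENSMUSG00000032902, chr3:104638668-104658462, plus strand), the lactate and ketone body carrier MCT1, was lower than in PBS at every time on this scale, called so after 30 min and 4 h. The PBS libraries held 197, 199 and 195 CPM, those of LPS 15 min 139, 140 and 142 CPM, those of LPS 30 min 90.9, 88.2 and 97.4 CPM and those of LPS 4 h 70.6, 71.5 and 74.1 CPM. No group overlapped another, but the step from LPS 30 min to LPS 4 h was not called and was 0.22 with endothelial marker scaling. By library size alone this step was -0.89 and was called by edgeR (adjusted p = 3.13e-08). The log2 value was -0.49 ± 0.03 after 15 min (adjusted p = 1), -1.10 ± 0.03 after 30 min (adjusted p = 4.99e-12) and -1.45 ± 0.04 after 4 h (adjusted p = 1.06e-16). It was the only one of the 10 carriers called lower after 30 min under this scaling. Its chaperone Bsg (basigin), which MCT1 needs to reach the membrane, fell after 4 h (log2 -1.80 ± 0.02, adjusted p = 1.67e-23). Slc16a1 made up 38.4 ± 0.496% of the summed TPM of 9 monocarboxylate carriers in PBS and 18.0 ± 0.693% after 4 h. Slc16a3, the lactate exporter MCT4, rose after 4 h (log2 1.72 ± 0.13, adjusted p = 9.34e-09), at a low 3.51 TPM in PBS and 6.45 TPM after 4 h.

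Slco1c1 (ENSMUSG00000030235, chr6:141524368-141570177, plus strand), the thyroxine carrier, held 749, 748 and 737 CPM in PBS and 896, 896 and 885 CPM after 15 min. After 30 min it stood at 761, 757 and 753 CPM and after 4 h at 283, 269 and 282 CPM. The log2 value was 0.26 ± 0.02 after 15 min and 0.02 ± 0.02 after 30 min, each with an adjusted p of 1. Only the LPS 4 h difference passed, at 2.68-fold lower (log2 -1.42 ± 0.02, adjusted p = 1.63e-20). It was -0.62 with endothelial marker scaling and was still called.

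Slco1a4 (ENSMUSG00000030237, chr6:141805440-141856199, minus strand), which carries bile acids, steroid conjugates and many drugs, gave the largest fall of the 10. Its PBS libraries held 1156, 1143 and 1161 CPM, those of LPS 15 min 1095, 1118 and 1117 CPM and those of LPS 30 min 979, 1001 and 989 CPM. The LPS 4 h libraries held 116, 117 and 117 CPM. The early log2 values were -0.06 ± 0.02 and -0.22 ± 0.02 (adjusted p = 1 each). After 4 h it was 9.88-fold lower than in PBS (log2 -3.30 ± 0.02, adjusted p = 9.06e-30), and 0.663% of all genes tested had a lower log2 value. Reads of near relatives could be split between them, but Slco1a5 and Slco1a6 held on average 81.7 and 33.0 fragments in PBS beside 31735 for Slco1a4.

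Slc22a8 (ENSMUSG00000063796, chr19:8591254-8611835, plus strand), the basolateral organic anion exchanger, followed the same course at a lower level. It held 293, 292 and 300.4 CPM in PBS, 268, 270 and 271 CPM after 15 min and 244, 242 and 229 CPM after 30 min. After 4 h it held 60.8, 64.1 and 64.4 CPM. The log2 value was -0.13 ± 0.03, -0.31 ± 0.03 and, as the only one called, -2.22 ± 0.03 (4.67-fold lower, adjusted p = 7.00e-23). Among 10 tested relatives that carry thyroid hormone or organic anions, 2 were higher and 3 lower after 4 h. Of all genes tested, 19.0% were higher and 13.8% lower. Slc22a6, the renal-type exchanger OAT1, fell (log2 -2.79 ± 0.08, adjusted p = 4.79e-18), as did Slco2b1 (log2 -1.31 ± 0.05, adjusted p = 2.35e-13), while Slco3a1 rose (log2 1.39 ± 0.05, adjusted p = 1.59e-13).

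**Figure D3:**
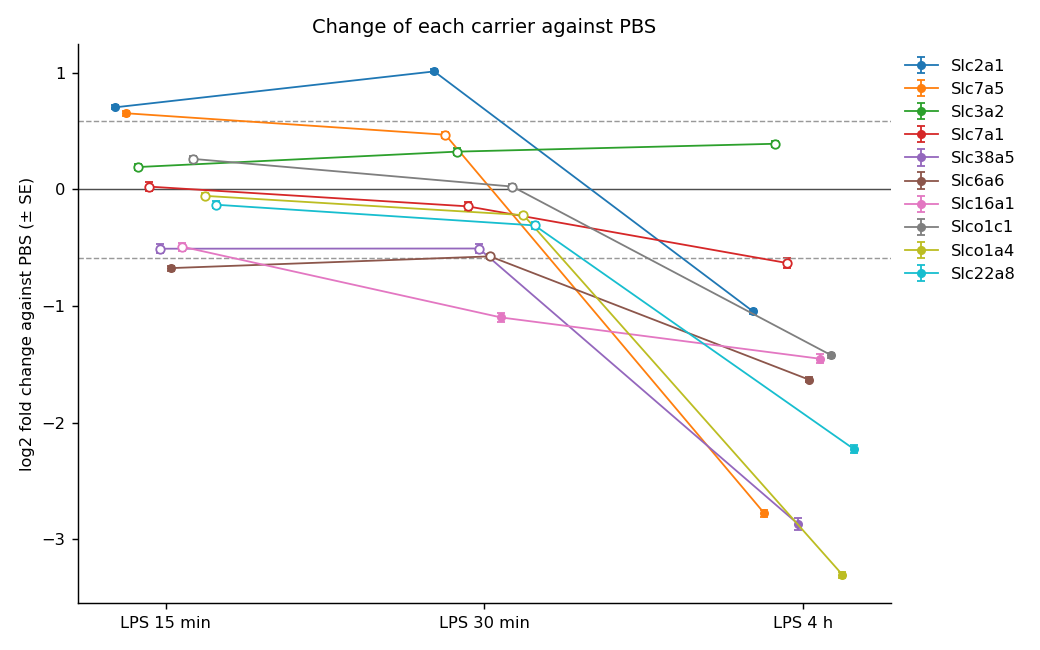
Log2 fold change of each of the 10 carriers against PBS at the 3 times (evenly spaced, not to scale), from the fit on CPM with TMM factors. Whiskers are SE, filled points passed the test beyond 1.5-fold, open points did not, and dashed lines mark a 1.5-fold change. Slc2a1 rises to 1.01 after 30 min and drops to -1.05 after 4 h, and only Slc3a2 lies above 0 after 4 h, which it does not by library size alone.

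The steps between neighbouring times were tested in the same fit. From LPS 15 min to LPS 30 min, 0 of 10 carriers were called by edgeR, while 2.69% of all genes were called higher and 1.96% lower. At an unadjusted p under 0.05 in that test the count was again 0, as it was with DESeq2 and limma. Over all genes DESeq2 called 620 and limma plus 1 or plus 10 called 443 or 413. In the test against no change 9 of 10 passed, beside 37.4% of all genes, with log2 values from -0.61 for Slc16a1 to 0.31 for Slc2a1. From LPS 30 min to LPS 4 h, 7 of 10 were lower, beside 11.8% of all genes, and 0 were higher, beside 16.9%. The counts of carriers were the same by DESeq2 and limma and at an unadjusted p under 0.05. Of all genes, 8.39% were lower with DESeq2 and 9.04% or 8.10% with limma plus 1 or plus 10. The unadjusted count was not made over all genes. Against no change 10 of 10 passed, beside 65.3%. The exceptions to the 7 were Slc3a2, Slc7a1 (log2 -0.49 ± 0.04) and Slc16a1 (log2 -0.35 ± 0.04). With TMM factors most of the fall of Slc16a1 was measured by LPS 30 min, whereas that of the other called carriers was measured after it. Slc6a6 was called lower both after 15 min and in the later step. By library size alone 9 of 10 carriers were lower for the later step, Slc7a1 and Slc16a1 included, beside 36.2% of all genes. With endothelial marker scaling neither value of Slc6a6 was called (-0.51 and -0.48), and 6 carriers were lower and 1 higher for the later step. Of all genes, 3.90% were lower and 6710 of 19150 higher there.

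The carriers were then set beside other gene groups after 4 h, where 13.8% of all genes tested were lower and 19.0% higher. Of the 14 endothelial markers, 3 were higher and 7 lower, with a median log2 value of -0.83. Cldn5, the main tight junction claudin of brain endothelium, fell (log2 -2.31 ± 0.02, adjusted p = 8.65e-27), while Cdh5, the endothelial cadherin, rose (log2 1.96 ± 0.02, adjusted p = 2.84e-25) and Flt1 stood at -0.08 ± 0.02. The endothelial markers thus did not move as a block. The 10 carriers' lowest value, -3.30, was below that of the lowest endothelial marker, Egfl7, at -2.94. Of the 7 choroid plexus markers, 4 were higher and 0 lower with TMM factors, with a median of 0.76. Their summed TPM was lower, however, at 16767 to 17472 in PBS and 14943 to 16008 after 4 h. A further 65 carriers were listed by substrate, called related carriers here, of which 14 carry vitamins, lipids or nucleosides, and not all belong to the gene families of the 10. Of these 65, 63 were tested, 13 were higher and 19 lower, with a median of -0.07, and 6 of the falls were among the 14.

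**Figure D4:**
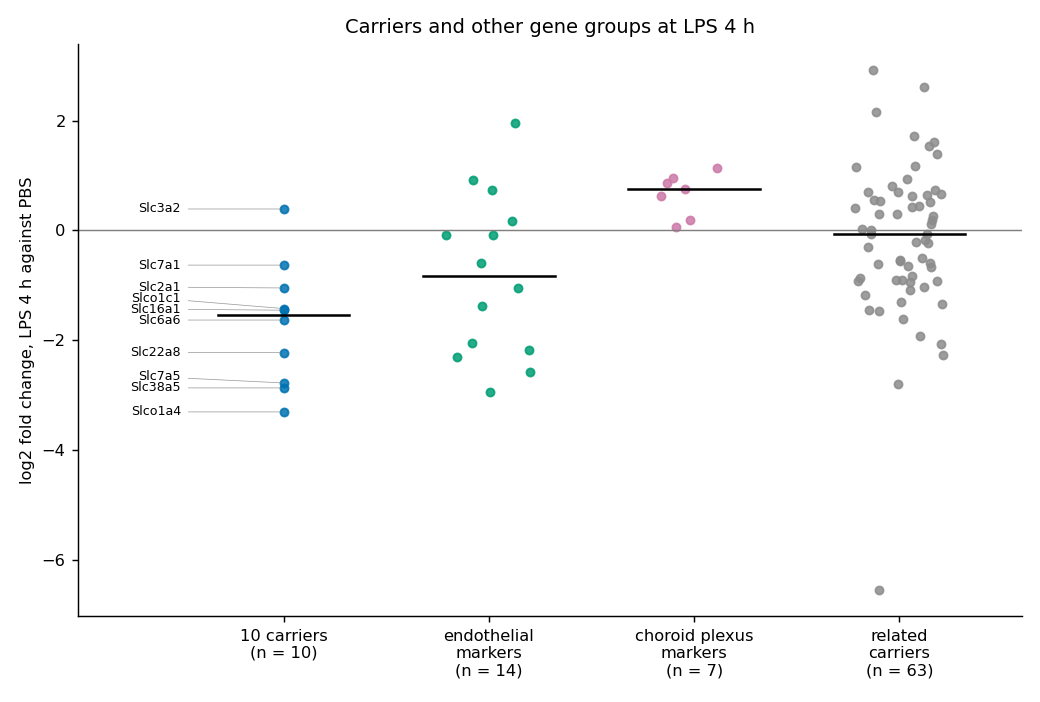
Log2 fold change after 4 h against PBS for the 10 carriers (named), 14 endothelial markers, 7 choroid plexus markers and 63 tested related carriers, 1 point a gene, with the median as a line. The lowest related carrier is Slc7a9, which held on average only 6.08 fragments a library. The medians are -1.54, -0.83, 0.76 and -0.07, on CPM with TMM factors. In TPM the summed choroid plexus markers were lower after 4 h than in PBS.

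The choice of scaling matters most after 4 h. The mean TMM factor was 1.17 in PBS, 1.15 after 15 min, 1.04 after 30 min and 0.717 after 4 h. By library size alone the median of all genes shifted by -0.71 after 4 h. There 9 of 10 carriers were called lower, beside 44.7% of all genes tested. Endothelial marker scaling levels the median of 14 markers. With TMM factors these ranged from -2.94 to 1.96 after 4 h, so this scaling does not measure the amount of endothelial cells. With endothelial marker scaling the median of all genes shifted by 0.79, and 7 carriers were lower and 1, Slc3a2, was higher. Of all genes, 3.70% were lower and 9314 of 19150 higher under that scaling. The median of the carriers was -2.25 and -0.74 under these scalings, which move all genes alike. Of all genes called after 4 h, 57.9% were higher with TMM factors, 18.2% by library size alone and 92.9% with endothelial marker scaling. Called lower under all 3 scalings were Slc7a5, Slc38a5, Slc6a6, Slc16a1, Slco1c1, Slco1a4 and Slc22a8. The summed level of the 10 carriers after 4 h was 22.4% of PBS in TPM and 38.6% in CPM with TMM factors.

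Salmon assigns reads to transcripts, so shares of the annotated transcripts of a carrier could be described, without an error for the assignment itself. Slc16a1 has a single annotated transcript, and the main transcript of Slc7a5, Slc7a1, Slc38a5 and Slc6a6 held 83.7% or more of the TPM of its gene in each group. For Slc2a1, the full coding transcript Slc2a1-201 held 66.6 ± 0.678% in PBS and 56.5 ± 1.68% after 4 h, and Slc2a1-204, annotated as a target of nonsense-mediated decay, 32.9 ± 0.752% and 43.0 ± 1.63%. For Slco1c1, the coding transcript Slco1c1-201 went from 44.2 ± 3.52% in PBS to 66.4 ± 2.81% after 4 h, while another coding transcript, Slco1c1-206, went from 20.5 ± 0.645% to 11.6 ± 2.31%. For Slc22a8, the retained-intron transcript Slc22a8-203 went from 15.8 ± 2.48% to 5.02 ± 2.24%, at a mean of only 0.860 TPM after 4 h. The coding transcript Slc22a8-202 went from 15.9 ± 1.75% to 24.2 ± 3.36%. For the transcripts named so far in these 3 genes the PBS and LPS 4 h libraries did not overlap. Those of the main transcript Slc22a8-201 did overlap, at 68.3 ± 3.46% in PBS and 70.8 ± 1.23% after 4 h. Such overlap was not counted over the transcripts of other genes. Of the 3 coding transcripts of Slco1a4, Slco1a4-201 was assigned 0 TPM in every library, and Slco1a4-203 and Slco1a4-202 held 66.0 ± 2.18% and 33.8 ± 2.19% in PBS and 61.8 ± 1.61% and 38.1 ± 1.60% after 4 h. Slc2a1 shares 105 exon bases with the antisense gene Gm12868, and since the kit does not mark strand, their reads cannot be told apart there. Gm12868 held on average 118 fragments beside 84620 for Slc2a1.

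**Figure D5:**
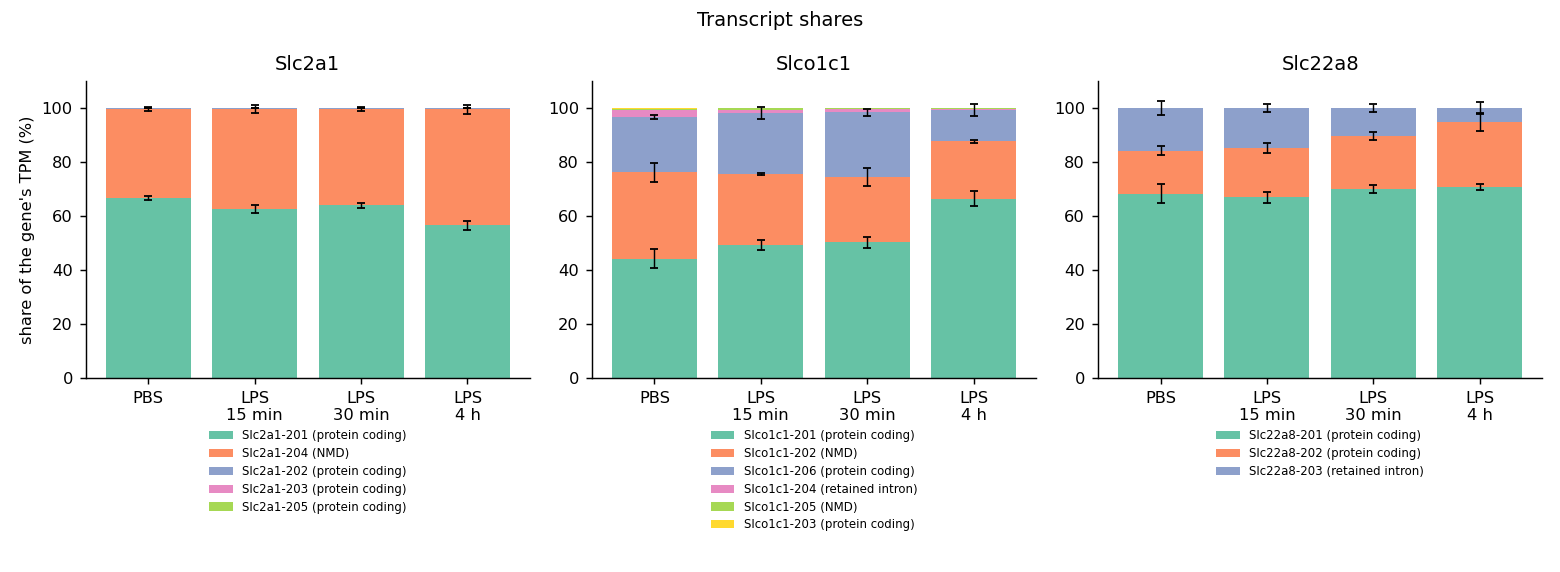
Share of each annotated transcript in the TPM of Slc2a1, Slco1c1 and Slc22a8 by group. Bars stack the means of 3 libraries and whiskers are SD of the 3 largest transcripts. From PBS to LPS 4 h the share of Slc2a1-204 goes from 32.9 to 43.0%, that of Slco1c1-201 from 44.2 to 66.4% and that of Slc22a8-203 from 15.8 to 5.02%.

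The bases before the start of transcription are shown for 4 carriers that fell after 4 h, because their promoters differ in base composition. RefSeq promoter windows of GRCm38.p6, from 250 bases before to 50 after a start, were given for 8 of the 10 carriers, 9 windows in all. Each sequence below runs 5′ to 3′ on the strand of its gene, holds no annotated exon, and has the letters CACGTG in capitals where they occur.
Slc2a1, chr4:119108495-119108710, plus strand: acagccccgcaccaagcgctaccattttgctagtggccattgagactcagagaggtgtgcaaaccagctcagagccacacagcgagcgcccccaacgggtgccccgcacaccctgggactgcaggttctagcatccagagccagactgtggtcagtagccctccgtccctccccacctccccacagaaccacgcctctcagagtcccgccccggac
Slc16a1, chr3:104638414-104638663, plus strand: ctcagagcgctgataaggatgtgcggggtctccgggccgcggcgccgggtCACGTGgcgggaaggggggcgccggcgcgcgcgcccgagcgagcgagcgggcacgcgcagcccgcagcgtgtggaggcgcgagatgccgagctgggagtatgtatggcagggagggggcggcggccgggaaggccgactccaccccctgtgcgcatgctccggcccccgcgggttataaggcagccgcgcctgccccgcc
Slc38a5, chrX:8271261-8271380, plus strand: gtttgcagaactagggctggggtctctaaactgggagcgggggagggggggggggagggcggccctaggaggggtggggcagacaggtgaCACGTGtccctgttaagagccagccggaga
Slco1a4, chr6:141856221-141856470, minus strand: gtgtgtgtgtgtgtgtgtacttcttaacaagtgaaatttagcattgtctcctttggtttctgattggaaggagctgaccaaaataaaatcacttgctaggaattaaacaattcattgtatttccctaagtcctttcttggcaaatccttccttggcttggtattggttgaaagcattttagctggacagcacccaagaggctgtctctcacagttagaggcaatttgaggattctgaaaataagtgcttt

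The stretch of Slc16a1 is 76.4% G and C and that of Slco1a4 39.2%. Any relation of base composition to the fall was not tested. On both strands of the whole windows, ACGTG, a core that the E-box CACGTG contains and that hypoxia response elements share, was found in 5 of the 8 genes, Slc2a1, Slc3a2, Slc38a5, Slc16a1 and Slco1c1, and in 21.8% of all genes with a window. TGANTCA, the AP-1 pattern, occurred in Slc7a1, the 1 carrier of the 8 that holds it, and in 8.97% of all genes. A form of the NF-κB pattern and TGATGCAA, a form of the amino acid response element, were found in 0 of the 8 and in 1.89% and 1.03% of all genes. These matches describe letters in a window and carry no measurement of binding.

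Finally, the genes whose log2 CPM over the 12 libraries was most like that of each carrier were listed, among 10889 genes with a mean of at least 10 CPM. The libraries share their 4 groups, so such values are high for many genes and are a description. Slc2a1 was closest to Mknk2 (Pearson r = 0.998) and Fkbp4 (r = 0.997), Slc7a5 to Gatm and Tmem204 (r = 0.999 and 0.998) and Slc3a2 to Cxcl1 and Ptges3 (r = 0.985 and 0.984). Slc7a1 was closest to Ago4 and 2210016L21Rik (r = 0.988 and 0.987), Slc38a5 to Nxpe4 and Itpr3 (r = 0.999 each), Slc6a6 to Flrt2 and Acacb (r = 0.997 each) and Slc16a1 to Mrtfb and Grip2 (r = 0.992 and 0.984). Slco1c1 was closest to Hey1 and Clcn2 (r = 0.998 each), Slco1a4 to Sox18 and Eogt (r = 0.999 each), and Slc22a8 to Apcdd1 (r = 0.999). Among the carriers themselves, Slco1a4 and Slc22a8 gave r = 0.997, Slc7a5 and Slco1c1 r = 0.993, and Slc3a2 and Slc16a1 gave r = -0.965 on this scale, although by library size alone both were below PBS after 4 h.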

How the data were processed

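RNA-seq of cerebral vessels was available for 12 libraries in 4 groups of 3, made with SMART-Seq v4, which does not mark strand, and Nextera XT. The authors deposited, per library, Salmon (version 1.2.1 in the submitters' processing notes) estimated counts, TPM and effective lengths per transcript, and a table of counts normalized with DESeq2, a signal scaled by size factors. The deposited estimated counts and TPM were summed here by GENCODE M21 gene (GRCm38) over 139852 of 140948 transcripts, the rest holding 0.482 to 0.850% of fragments, and counts were rounded. Depth was 18309177 to 25882028 fragments per library.

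Counts were fitted with edgeR 4.0.16 (R 4.3.3) over all 12 libraries, with TMM factors, filterByExpr (minimum count 10), the quasi-likelihood fit and glmTreat against a 1.5-fold change, with Benjamini-Hochberg adjustment over 19150 genes and a threshold of 0.05. SE was taken from the log2 fold change and the root of its F statistic. The method was tested on simulated data. Alternatives were other scalings, no filter, a test against no change, a limit of 1.5 on the log2 scale, length offsets, replicate numbers as a block, 2-group fits, DESeq2 1.42.0, limma 3.58.1 on the deposited table plus 1 or 10, and leaving out each library. The 10 carriers and all lists were chosen with earlier results of these data known. Named were all 10 carriers, the 2 genes most alike in log2 CPM (prior count 2; 1 of them is not reported here), and of each related list up to 2 rises and 2 falls called at any time with a mean count of at least 50. Of the marker lists, the genes that set the range were named. Slc7a9, Cldn5, Flt1, Ly6g and the relatives of Slco1a4 were named after their values were seen.

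Libraries with the same number did not deviate together (18 correlations from -0.0489 to 0.0679), so the numbers were not taken as pairs. No 2 libraries of a group were alike within counting error, as the variance between them was 2.21 to 2.87 times that of counting.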

Additional observations from a re-analysis of the deposited data

Results flagged for a closer look

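Results were marked where the change from PBS differed between LPS times. In that test 7 carriers differed between LPS 30 min and LPS 4 h, each lower in all 3 later libraries, where 11.8% of all genes were lower and 16.9% higher. The log2 value of the step was -3.25 for Slc7a5, -3.08 for Slco1a4, -2.36 for Slc38a5 and -2.06 for Slc2a1. It was -1.92 for Slc22a8, -1.45 for Slco1c1 and -1.06 for Slc6a6. The adjusted p-values ran from 9.26e-29 for Slco1a4 to 2.83e-16 for Slc6a6. Slc2a1 is the carrier that was called higher than PBS after 30 min and lower after 4 h. For Slc6a6 the step was -0.48 and not called with endothelial marker scaling.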

How the results depend on the processing

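The fall of Slc7a5, Slc38a5, Slc6a6, Slco1a4 and Slc22a8 after 4 h was called under all 24 alternatives, those that leave out 1 library included. Tested against no change, 9, 9 and 9 of the 10 carriers were called after 15 min (4 higher, 5 lower), after 30 min (3 higher, 6 lower) and from LPS 15 min to LPS 30 min (3 higher, 6 lower), and 1 was higher after 4 h and 1 from LPS 30 min to LPS 4 h. All genes called then numbered 7395, 7066 and 13125 against PBS and 7153 and 12498 for the steps. With 1.5 as a limit on the log2 scale, 0 carriers were called after 15 min and 30 min in either direction and 5, all lower, after 4 h, and all genes called numbered 55, 184 and 1981 against PBS and 123 and 1721 for the steps. These 2 settings change the limit itself.

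After 15 min 1 carrier was higher with DESeq2's size factors, by library size alone, without the low-count filter, with the length offset, with DESeq2 and with limma plus 1 or plus 10, where Slc7a5 was not called. Of all genes, 592, 581, 674, 487, 462, 339 and 322 were higher in these settings, in this order. Genes tested numbered 32085 without the filter, 19145 with limma and 19150 otherwise. When single libraries were left out the count of carriers ranged from 1 to 2, beside 553 to 645 of all genes. Limma plus 1 called 406, 531 and 443 genes after 15 min, after 30 min and for the early step, and limma plus 10 called 385, 497 and 413. The cause of these differences was not tested. By library size alone, 2 carriers were lower after 30 min, beside 1.78% of all genes, and 1 was lower for the early step, beside 3.38%. All genes called numbered 10463 after 4 h and 8848 for the late step. With endothelial marker scaling, 0 carriers were lower after 15 min, beside 0.470% of all genes. Carriers called higher numbered 2 after 30 min, 1 after 4 h and 1 for the late step. In these comparisons 1160, 9314 and 6710 of 19150 genes were higher, and 10023 genes in all were called after 4 h. The summed level in percent of PBS was 118 after 15 min, 128 after 30 min and 38.6 after 4 h in CPM with TMM factors, and 116, 125 and 38.1 in the deposited table, where TPM does not hold most genes level.

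The log2 values that changed sign were uncalled and mostly small. By library size alone Slc3a2 was -0.31 after 4 h, -0.0085 for the early step and -0.47 for the late step, Slco1c1 was -0.14 after 30 min, and Slc38a5 and Slc6a6 were -0.14 and -0.040 for the early step. With endothelial marker scaling Slco1a4 was 0.11 and Slc22a8 0.036 after 15 min, Slc7a1 was 0.077 and Slco1a4 0.0021 after 30 min, Slc7a1 was 0.17 after 4 h and 0.092 for the late step, and Slc16a1 was 0.22 for the late step. Slc7a1 after 15 min was -0.0058 with the length offset and -0.018 with limma plus 1 or 10, and ranged from -0.028, without PBS library 3, to 0.079 without single libraries. Slco1c1 after 30 min was -0.011 with limma plus 1 or 10. Slc38a5 for the early step was -0.0028 without the filter and ranged from -0.019 to 0.017 without single libraries.

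With the replicate number as a block, 3, 2 and 8 carriers were called against PBS and 0 and 7 for the steps, and no other call on a carrier changed. Of 19150 genes, 776, 856 and 6235 were called against PBS and 876 and 5422 for the steps. All 10 carriers passed the low-count filter, and the effect of depth on them was not tested.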

Other observations

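Other carriers of the barrier, outside the 10, were read from lists by substrate. Mfsd2a, the carrier of lysophosphatidylcholine with docosahexaenoic acid in brain endothelium, was called higher after 15 min (log2 0.93 ± 0.03, adjusted p = 7.11e-09) and after 30 min (log2 0.80 ± 0.03, adjusted p = 9.66e-06) and lower after 4 h (log2 -1.92 ± 0.05, adjusted p = 1.79e-18). Its mean level was 92.4 TPM in PBS, 179 after 15 min, 133 after 30 min and 12.7 after 4 h, the same order of groups as for Slc7a5. Among the 14 vitamin, lipid and nucleoside carriers 6 were lower and 0 higher after 4 h by edgeR, beside 13.8% and 19.0% of all genes tested. Slc19a1, the reduced folate carrier, was among them (log2 -1.60 ± 0.05, adjusted p = 6.87e-15).

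Slc6a8, the creatine carrier, was called higher after 4 h with TMM factors (log2 0.70 ± 0.04, adjusted p = 0.00423), although its TPM was lower, at 40.3 in PBS and 34.9 after 4 h, while its relative Slc6a13 fell (log2 -2.26 ± 0.05, adjusted p = 4.89e-19). Slc16a4 fell (log2 -1.18 ± 0.06, adjusted p = 3.42e-10) and Slc16a9 was called higher (log2 0.73 ± 0.06, adjusted p = 0.00611), again with a lower TPM, at 20.7 in PBS and 18.2 after 4 h. Slco4a1 was called higher after 30 min alone (log2 1.30 ± 0.21, adjusted p = 0.00826), at 1.04 TPM in PBS and 2.02 TPM after 30 min. Slc38a11 (log2 -0.91 ± 0.08, adjusted p = 0.000172) and Slc2a10 (log2 -0.91 ± 0.17, adjusted p = 0.0346) were lower after 4 h.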
